A study of Mus musculus with 12 samples.

Results

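The NMDA receptor subunits are the 6 genes Grin1, Grin2a, Grin2b, Grin2c, Grin2d and Grin3a, chosen by name from the 54752 genes counted in mouse cerebellar cortex. All 6 were found in the table, and all 6 passed the filter on low counts in every comparison. RNA came from pieces of cerebellar cortex that spanned several folia and left out the cerebellar nuclei. The 12 mice were wild-type males of 12 weeks, F1 hybrids of C57BL6J and FVB, and each of 3 diets had 4 mice. The AL mice ate ad libitum. The DR mice were on dietary restriction, which lowered their food in steps over the weeks before sampling. They received 1 meal a day, shortly before dark, and were sampled without their last meal. The KD mice were on a ketogenic diet, whose composition and duration are not given in the sources used here. For AL and DR, the 4 mice were picked from 6 per diet by RNA quality. RNA of whole tissue pools all cell types, so fewer cells of a type and less RNA per cell cannot be told apart in any value given here.

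NMDA receptors are glutamate-gated cation channels that open only when the cell is also depolarised, and that pass calcium. Each receptor joins obligatory GluN1 subunits, encoded by Grin1, which bind glycine or D-serine, with GluN2 subunits, encoded by Grin2a to Grin2d, which bind glutamate, or with GluN3 subunits. The GluN2 type sets how long the channel stays open and how strongly magnesium blocks it. In the cerebellum, maturing granule cells exchange Grin2b for Grin2a and then Grin2c, and Grin2d is found in Golgi cells.

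The coding sequences of the GluN2 subunits end in a short motif that is bound by the PDZ domains of the PSD-95 family of synaptic scaffolds. The last 30 coding bases of the longest coding transcript of each member are shown for this reason, 5′ to 3′ on the coding strand, with the last 4 codons before the stop in capitals. They were read from GENCODE vM21 transcripts on GRCm38, and all 6 genes lie on the minus strand. Grin2b is at chr6:135732101-135732130, Grin2a at chr16:9577830-9577859, Grin2c at chr11:115249574-115249603, Grin2d at chr7:45832783-45832812, Grin1 at chr2:25292371-25292400 and Grin3a at chr4:49665229-49665258.
Grin2b: gagaaactttctagtattGAGTCTGATGTC
Grin2a: aagaaaatgcctagtattGAATCTGATGTC
Grin2c: aggcggatctccagcctgGAATCAGAAGTG
Grin2d: gcgcacttctccagcctgGAGTCCGAGGTA
Grin1: ctgcagctgtgttcccgtCATAGGGAGAGC
Grin3a: tatcaaaggacgaaccggACTTGTGAATCC
Of the 12 capital bases of Grin2b, 11 were the same in Grin2a, 9 in Grin2d and 8 in Grin2c. The same count was 5 for Grin3a and 4 for Grin1. The complete coding transcripts of Grin1 and of Grin2b each had 2 different coding ends, of which only that of the longest is shown. The longest run of identical bases between the transcripts of any 2 members was 34 bases, between Grin2b and Grin2c.

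The genes differ in length, which bears on how their levels compare. Grin2a (ENSMUSG00000059003.12, chr16:9567898-9995560) has 17933 exonic bases, and Grin2b (ENSMUSG00000030209.14, chr6:135713233-136173511) has 24842. Grin2c (ENSMUSG00000020734.13, chr11:115249169-115267243) has only 5037. Grin1 (ENSMUSG00000026959.13, chr2:25291181-25319187) has 9700 exonic bases, Grin2d (ENSMUSG00000002771.12, chr7:45831883-45878378) 6658 and Grin3a (ENSMUSG00000039579.15, chr4:49661611-49845744) 12275. The library kit does not mark strand, so reads of a gene and of an overlapping antisense gene cannot be told apart. Exons of the antisense gene Grin1os cover 13.5% of the exonic bases of Grin1, whose values are uncertain for that reason. The antisense gene Gm45441 covers 9.66% of Grin2d, and overlaps of the other members were 1.81% or less.

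Between 31712084 and 40798644 reads per library were assigned to genes, with a median of 36674269. Counts were divided by the TMM-scaled size of their library and are given as CPM, and the TMM factors ran from 0.99 to 1.02. A gene was called when its adjusted p was under 0.05 by the quasi-likelihood test of edgeR, adjusted by Benjamini-Hochberg for every gene tested. Each log2 fold change is the first named diet minus the second. On DR against AL, 583 of 19052 genes were called (252 higher, 331 lower), and on DR against KD 942 of 19087 (479 higher, 463 lower). With library size alone in place of TMM these splits became 322 higher and 243 lower, and 617 higher and 376 lower. In KD mice compared with AL mice, edgeR called 0 of 19036 genes, with 928 at an unadjusted p under 0.05, and DESeq2 called 10.

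Grin2c and Grin1 made up most of the subunit RNA of this cortex on every diet. Per kilobase of exon (RPKM), the mean level on AL was 96.5 for Grin2c, 37.8 for Grin1, 6.99 for Grin2a, 3.15 for Grin2d, 2.07 for Grin3a and 1.23 for Grin2b. The order was the same on DR and KD, and no neighbours in it overlapped between mice of 1 diet. It depended on the length used. Per kilobase of coding sequence, the mean AL levels were 131 for Grin2c and 127 for Grin1, which then overlapped, and 28.5 for Grin2a. Grin3a followed at 7.47, Grin2b at 6.88 and Grin2d at 5.28, so Grin2d and not Grin2b was lowest on that scale. The ratio of Grin1 RPKM to the summed RPKM of the 4 Grin2 genes was 0.351 ± 0.0187 on AL, 0.339 ± 0.0155 on DR and 0.352 ± 0.0101 on KD (SD, n = 4 each). The summed RPKM of all 6 members was 148 ± 8.34 on AL, 151 ± 8.52 on DR and 153 ± 5.19 on KD (SD, n = 4 each). Both sets of values overlapped between diets.

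Grin2b and Grin2a fell on DR, and the other subunits did not pass the test. On DR against AL, 2 of 6 members were called, both lower, beside 3.06% of all genes tested called in either direction and 1.74% called lower. On 3 of 6 members the DR mice lay below every AL mouse, beside 5.64% of all genes tested. The median log2 fold change of the 6 members was -0.10, against 0.0036 over all genes tested. Between KD and AL, 0 of 6 members and 0% of all genes tested were called by edgeR, DESeq2 called 0 of 6 members, and 1 member, Grin2b, had an unadjusted p under 0.05. Against KD, the same members, Grin2a and Grin2b, were called lower, beside 4.94% of all genes in either direction and 2.43% lower. For these 2 of 6 members every DR mouse was below every KD mouse, beside 6.03% of all genes tested. These comparisons share mice: the DR libraries enter the first and the last of them.

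**Figure D1:**
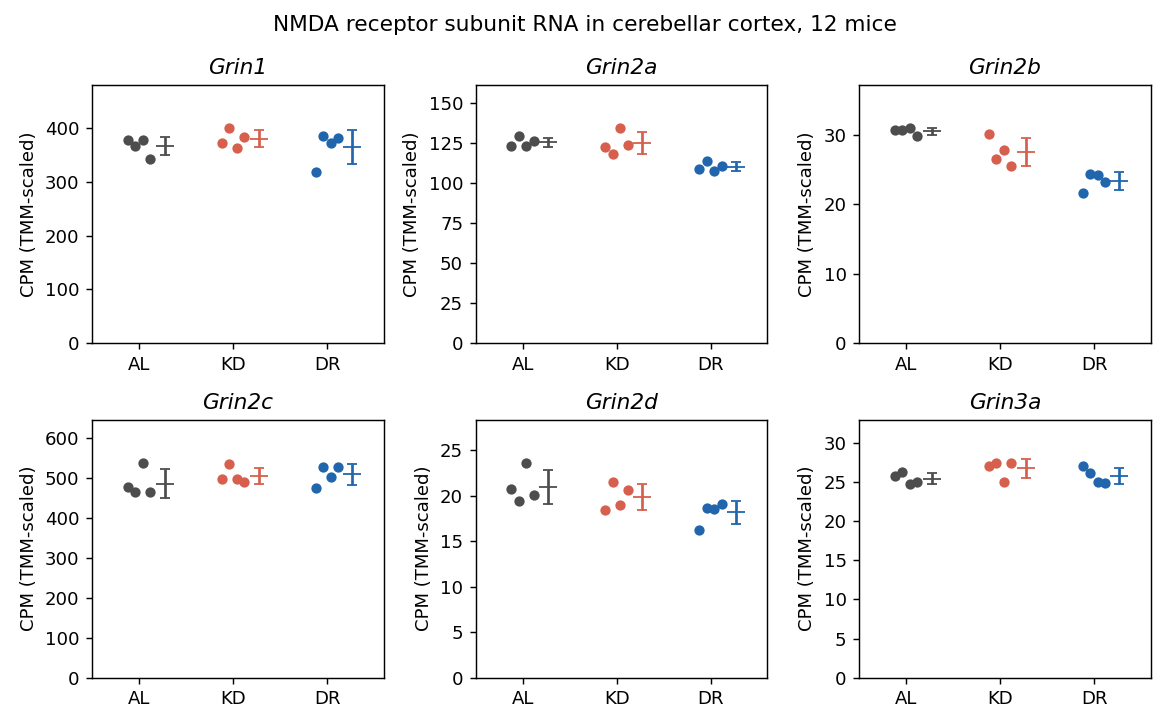
TMM-scaled CPM (vertical axes, from 0) of the 6 NMDA receptor subunits in each of 4 AL, 4 KD and 4 DR mice. Each point is 1 mouse, and the cross bar with whiskers is the mean ± SD. The 4 DR mice lie below the 8 others for Grin2a and Grin2b, while the diets overlap for Grin1, Grin2c and Grin3a.

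Grin2b, the subunit typical of immature neurons and of slowly closing receptors, had the largest difference among the members. The AL mice were at 30.7, 30.7, 31.0 and 29.9 CPM, the KD mice at 30.2, 26.5, 27.8 and 25.6 CPM, and the DR mice at 21.6, 24.4, 24.2 and 23.3 CPM. The highest DR mouse was below the lowest KD mouse, and 3 of 4 KD mice were below every AL mouse. The AL values lay close together, with a mean of 30.6 ± 0.498 CPM (SD, n = 4), against 23.4 ± 1.29 on DR and 27.5 ± 2.01 on KD (SD, n = 4 each). The AL spread, 1.63% of the mean, was smaller than counting of 943 to 1247 reads alone gives on average. It may therefore understate how far AL mice differ. On DR against AL, Grin2b fell by 23.6% (95% interval of the change -29.8% to -17.0%), a log2 fold change of -0.39 (SE 0.056, edgeR's adjusted p = 0.00208). It was called in every fit tried, including the 8 with a mouse left out, where adjusted p reached 0.0106 at most. In DR mice compared with KD mice, its log2 fold change was -0.24 (SE 0.065, edgeR's adjusted p = 0.0454). That call was lost without each of DR replicates 1, 3 and 4 and KD replicates 1, 2 and 3, with adjusted p of 0.0636 to 0.158 in edgeR's test. It was lost as well with library size alone (0.0666), with a filter at a mean of 10 CPM (0.0511) and with the length trend removed (0.0546). For KD against AL, the log2 fold change was -0.15 (SE 0.056), with an unadjusted p of 0.0165 and an adjusted p of 0.981 in edgeR's test.

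Grin2a, the subunit of faster receptors that joins as neurons mature, showed a smaller difference with little spread. The AL mice were at 123, 129, 123 and 126 CPM, the KD mice at 122, 118, 134 and 123 CPM, and the DR mice at 108, 114, 107 and 111 CPM. All DR mice lay below all others. AL and KD overlapped, with KD spread more widely to both sides of AL (SD 6.88 against 2.80 CPM, n = 4 each). On DR against AL, Grin2a fell by 12.2% (95% interval -17.4% to -6.80%), a log2 fold change of -0.19 (SE 0.041, edgeR's adjusted p = 0.0225). The call was lost without each of AL replicates 1, 2 and 4 and DR replicates 1, 3 and 4, with adjusted p of 0.0503 to 0.0824 in edgeR's test. It was lost also when the trend of each library on gene length was removed, where the log2 fold change was -0.14 and the adjusted p 0.0851. Between DR and KD, the log2 fold change was -0.18 (SE 0.046, edgeR's adjusted p = 0.0326). That call was lost with library size alone (0.0518), and without each of DR replicates 1, 3 and 4 and KD replicates 1, 3 and 4 (0.0562 to 0.116). In KD mice against AL mice it was -0.01 (SE 0.042, edgeR's adjusted p = 0.994), with a 95% interval of -6.52% to 5.86%.

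Grin2c, which gives receptors of low conductance and weak magnesium block and is typical of mature granule cells, was higher than any other member in every library in CPM and per kilobase of exon, but overlapped with Grin1 per kilobase of coding sequence. The AL mice were at 477, 465, 539 and 464 CPM, the DR mice at 475, 529, 504 and 529 CPM, and the KD mice at 498, 534, 497 and 491 CPM. The 3 diets overlapped. On DR against AL, the log2 fold change was 0.07 (SE 0.055, edgeR's adjusted p = 0.577), and the 95% interval of -3.51% to 13.7% left out a fall of the size seen for Grin2a or Grin2b. Against KD it was 0.01 (95% interval -5.86% to 7.98%), and on KD against AL 0.06 (95% interval -3.29% to 11.8%). Neither was called.

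Grin1, which every NMDA receptor needs, was at 377, 367, 378 and 342 CPM on AL, at 318, 386, 373 and 382 CPM on DR and at 374, 401, 363 and 384 CPM on KD. The 3 diets overlapped, and DR replicate 1 was the lowest of the 12 mice. Its log2 fold change on DR against AL was -0.01 (SE 0.060, edgeR's adjusted p = 0.974), with a 95% interval of -8.90% to 8.79%. The sign turned in 6 of the 15 alternative fits. Between DR and KD it was -0.06 (edgeR's adjusted p = 0.626), and on KD against AL 0.06 (edgeR's adjusted p = 0.994).

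Grin2d, the subunit of the slowest receptors, was at 20.7, 19.5, 23.6 and 20.03 CPM on AL, at 16.2, 18.7, 18.6 and 19.1 CPM on DR and at 18.4, 21.5, 19.0 and 20.6 CPM on KD. The DR mice lay just below every AL mouse but overlapped with KD. Its log2 fold change on DR against AL was -0.21 (SE 0.076), with an unadjusted p of 0.0162 and an adjusted p of 0.165 in edgeR's test, and its 95% interval ran from -22.6% to -3.0%. The estimate was near that of Grin2a, with a larger standard error. In DR against KD the log2 fold change was -0.13 (edgeR's adjusted p = 0.355), and on KD against AL -0.08 (edgeR's adjusted p = 0.994).

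Grin3a, which binds glycine and lowers calcium entry where it joins a receptor, was at 25.8, 26.2, 24.8 and 25.0 CPM on AL, at 27.02, 26.1, 25.1 and 24.9 CPM on DR and at 27.1, 27.5, 25.0 and 27.5 CPM on KD. All diets overlapped within these few units. Its log2 fold change was 0.02 on DR against AL (edgeR's adjusted p = 0.899, 95% interval -6.53% to 9.84%). On KD against AL it was 0.07 (edgeR's adjusted p = 0.994) and on DR against KD -0.05 (edgeR's adjusted p = 0.668).

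Outside the 6 members, the other GluN3 gene, Grin3b, had only 1.22 to 1.98 CPM in the 12 libraries, and 32.1% of its exonic bases overlap the gene Tmem259, so its values are uncertain. Its log2 fold change on DR against AL was 0.15 (edgeR's adjusted p = 0.716). Grina, whose product is a membrane protein named after the receptor but is no subunit of it, had 222 to 262 CPM, with a log2 fold change of 0.06 on DR against AL (edgeR's adjusted p = 0.550). Neither was called in any comparison.

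**Figure D2:**
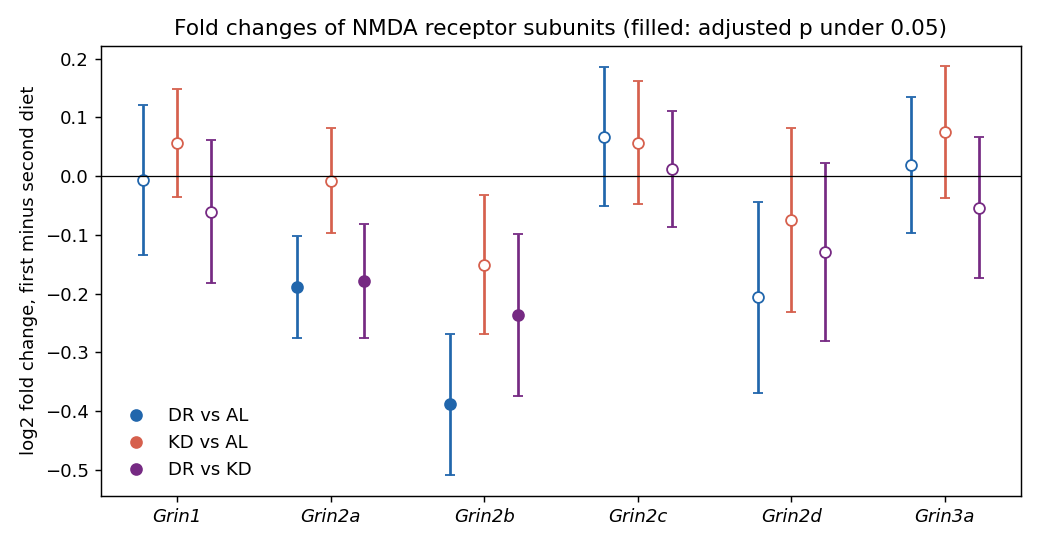
Log2 fold change (vertical axis, first named diet minus second) of each subunit in the 3 diet comparisons, with 95% intervals from edgeR's fit. Filled points have an adjusted p under 0.05. Only Grin2a and Grin2b have filled points, both below 0 and both in the comparisons of DR with AL and of DR with KD.

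The balance between subunits was compared within each library, as the log2 ratio of reads per exonic base, which does not depend on library scaling. A constant gene length cancels in the difference between diets. The ratios are not independent results: on the log2 scale, Grin2c to Grin2b equals Grin2c to Grin2a plus Grin2a to Grin2b. They also rest on the same reads as the fold changes above. The ratio of Grin2c to Grin2b was 6.26, 6.22, 6.42 and 6.26 on the log2 scale in the AL mice. In the KD mice it was 6.35, 6.63, 6.46 and 6.57, and in the DR mice 6.76, 6.74, 6.68 and 6.81. All DR mice were above all others, and KD overlapped with AL. The mean difference between DR and AL was 0.46 ± 0.051 on the log2 scale (SE), or 37.3% in the ratio, with p = 0.0286 in a two-sided exact permutation test over the 70 divisions of 8 mice. That is the smallest p which 4 against 4 mice allow, and over the 9 ratio comparisons its adjusted value was 0.0643. The difference between DR and KD was 0.25 ± 0.068 (SE; exact p = 0.0286, adjusted 0.0643), and that between KD and AL 0.21 ± 0.077 (SE; exact p = 0.0571, adjusted 0.0857).

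The ratio of Grin2a to Grin2b was 2.47, 2.54, 2.46 and 2.55 on the log2 scale in AL mice, 2.80, 2.69, 2.62 and 2.72 in DR mice and 2.49, 2.62, 2.74 and 2.74 in KD mice. DR lay above AL without overlap, with a difference of 0.20 ± 0.044 (SE; exact p = 0.0286, adjusted 0.0643), and KD overlapped with both. The KD against AL difference was 0.14 ± 0.064 (SE; exact p = 0.0857), and without KD replicate 1 it was 0.20, with an exact p of 0.0286. Between DR and KD the ratio differed by 0.06 ± 0.071 (SE; exact p = 0.514). Grin2b was lower relative to Grin2a in every DR mouse than in any AL mouse, and no ratio passed the threshold after adjustment over 9 comparisons. Since 0.0286 is the smallest p possible, most of the 9 comparisons would have had to reach it for any to pass. The adjusted values therefore decide little about the balance.

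The ratio of Grin2c to Grin2a was 3.79, 3.68, 3.96 and 3.71 on AL, 3.96, 4.05, 4.06 and 4.09 on DR and 3.86, 4.01, 3.72 and 3.82 on KD, all on the log2 scale. The highest AL mouse, replicate 3, came to within 0.01 of the lowest DR mouse. The difference between DR and AL was 0.26 ± 0.068 (SE; exact p = 0.0286, adjusted 0.0643), that between DR and KD 0.19 ± 0.066 (SE; exact p = 0.0571) and that between KD and AL 0.07 ± 0.087 (SE; exact p = 0.429). With the length trend removed from each library, the DR against AL difference was 0.21 with an exact p of 0.0571.

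As shares of the summed RPKM of the 4 Grin2 genes, Grin2c held 89.4 ± 0.513% on AL, 91.2 ± 0.142% on DR and 90.1 ± 0.470% on KD (SD, n = 4 each). Grin2a held 6.50 ± 0.515%, 5.54 ± 0.202% and 6.25 ± 0.481%, in the same order of diets. Grin2b held 1.14 ± 0.0619%, 0.849 ± 0.0300% and 0.997 ± 0.0859%, and Grin2d 2.91 ± 0.0703%, 2.46 ± 0.0820% and 2.68 ± 0.156%. The sizes of these shares rest on the length chosen. By coding length the AL shares were 76.2% for Grin2c, 16.7% for Grin2a, 4.02% for Grin2b and 3.07% for Grin2d, and on DR they were 79.7%, 14.6%, 3.06% and 2.66%.

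**Figure D3:**
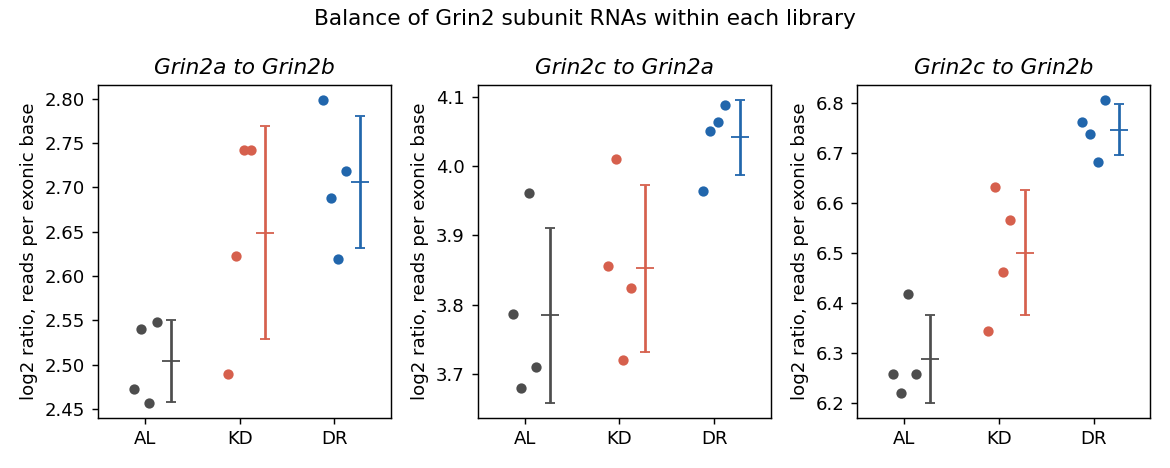
Log2 ratio of reads per exonic base between pairs of Grin2 subunits (vertical axes, not from 0) in each of 4 AL, 4 KD and 4 DR mice. Points are mice and cross bars with whiskers are means ± SD. DR mice lie above AL mice in all 3 ratios, which are not independent of each other, with KD mice between or overlapping.

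The members were also compared in pairs over the 12 libraries. The log2 CPM of Grin2a and Grin2b had a Pearson r of 0.79, which was 0.17 after the mean of each diet was taken out. Grin2c and Grin2d had an r of 0.38 that became 0.88 after the same step, Grin1 and Grin2d had 0.61 and 0.77, and Grin1 and Grin2c 0.65 and 0.72. Grin2b and Grin2d had 0.61 and -0.0033, and Grin2a and Grin2d 0.43 and -0.34. Grin3a had values between -0.20 and 0.07 with the other members before that step. These are descriptions over 12 libraries that share diets and scaling, and carry no test.

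Among 11699 genes whose mean reached 5 CPM, the 3 whose log2 CPM was most like that of each member over the 12 libraries were named. For Grin2b these were Dgkh (r 0.96, Spearman's rho 0.91), Fhod3 (r 0.95, rho 0.98) and Scd2 (r 0.95, rho 0.96). With diet means removed their r was 0.77, 0.83 and 0.77. For Grin2a they were Rgs7bp (r 0.95, rho 0.91), Aldh1l2 (r 0.95, rho 0.90) and Nmt2 (r 0.94, rho 0.84), with r of 0.82, 0.79 and 0.73 after removal. Grin2a and Grin2b shared none of their 3 nearest genes, but lists of 3 out of 11699 say little about how alike these members are. Genes picked for the highest r over 12 libraries have a high r by that choice. Grin2d was most like Adgrb1 (r 0.96, rho 0.90), Pcdh1 (r 0.95, rho 0.87) and Plxnb2 (r 0.95, rho 0.93). Grin1 was most like Plppr2 (r 0.92, rho 0.74), Rusc2 (r 0.92, rho 0.76) and Rfx5 (r 0.91, rho 0.72). Grin2c was most like Atxn7l2 (r 0.91, rho 0.94), Abcc10 (r 0.90, rho 0.88) and Ube2o (r 0.89, rho 0.89). The nearest genes of Grin3a were less close: Ndufa2 (r 0.87, rho 0.72), Mrps16 (r 0.85, rho 0.80) and Chchd4 (r 0.85, rho 0.93).

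Of 81 genes in 5 lists of partners of the receptor, 6 were called on DR against AL (1 higher, 5 lower), which is 7.41% beside 3.06% of all genes. When DR was set against KD, 7 were called (2 higher, 5 lower), 8.64% beside 4.94%, and on KD against AL 0, with 1 gene each at an unadjusted p under 0.05 in the lists of co-agonists, scaffolds and downstream partners. The shares over all genes include many genes of low level. Among genes with a mean above 10 CPM, larger shares were called: 492 of 10202 on DR against AL and 779 of 10202 on DR against KD. Whether the partners differ from genes of like level was not tested.

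Among 12 genes that supply or clear the co-agonists D-serine and glycine, 1 was called on DR against AL, and the median log2 fold change was -0.0002. Slc7a10, a transporter of D-serine and glycine, was at 26.8, 27.6, 30.4 and 27.3 CPM on AL and at 23.2, 21.2, 22.2 and 22.4 CPM on DR. The diets did not overlap, and its log2 fold change of -0.33 (SE 0.060, edgeR's adjusted p = 0.00939) was called in all 8 fits with a mouse left out. Against KD, Slc7a10 was again lower (-0.29, adjusted p = 0.0262) and Psph, the last enzyme of L-serine synthesis, was higher (0.34, adjusted p = 0.0216), and each was called in 4 of 8 fits with 1 mouse removed. For KD against AL, Slc6a9, a glycine transporter, had a log2 fold change of 0.02 (edgeR's adjusted p = 0.994).

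In the list of 24 scaffold, trafficking and auxiliary genes, 1 was called on DR against AL, and the median log2 fold change was -0.09. Shank2, a postsynaptic scaffold protein, was at 443 ± 12.2 CPM on AL and at 369 ± 31.8 CPM on DR (SD, n = 4 each), and its log2 fold change was -0.26 (SE 0.056, edgeR's adjusted p = 0.0219). With 1 mouse removed at a time it was called in 4 of 8 fits, and missed the threshold without AL replicates 1 and 4 and DR replicates 2 and 3 (adjusted p of 0.0513 to 0.0737 in edgeR's test). The 4 Dlg genes of the PSD-95 family, whose products bind the coding end shown above, were not called. Every DR mouse was nonetheless below every AL and KD mouse for Dlg2. Its log2 fold change was -0.13 against AL (edgeR's unadjusted p = 0.00675, adjusted 0.108) and -0.12 against KD (unadjusted p = 0.00862, adjusted 0.102). Dlg1, Dlg3 and Dlg4 overlapped between diets. In DR mice compared with KD mice, Shank2 (-0.20, adjusted p = 0.0457) and Ephb2, a receptor tyrosine kinase that binds the NMDA receptor (-0.20, adjusted p = 0.0303), were called lower in edgeR's test. With 1 mouse removed at a time, Shank2 kept this call only without DR replicate 4 (adjusted p up to 0.117 in edgeR's test otherwise), and it missed the threshold with library size alone (0.0525) and with a mean above 10 CPM (0.0529). Ephb2 kept it only without DR replicate 4 and without KD replicate 2, with adjusted p of 0.0570 to 0.103 in the other 6 edgeR fits. For KD against AL, Shank1 had a log2 fold change of 0.03 (edgeR's adjusted p = 0.994).

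Of 21 kinases and phosphatases that act on the receptor, 2 were called on DR against AL, in opposite directions, and the median log2 fold change was -0.01. Ptk2b, which encodes the calcium-sensitive tyrosine kinase Pyk2, was at 1.80, 1.63, 2.30 and 1.77 CPM on AL, at 1.97, 1.88, 1.122 and 2.32 CPM on KD and at 4.44, 3.62, 3.97 and 3.99 CPM on DR. Every DR mouse was above every other mouse. The log2 fold change was 1.10 on DR against AL (SE 0.14, edgeR's adjusted p = 0.00100) and 1.13 on DR against KD (edgeR's adjusted p = 0.00134), and both were called in all 8 fits with a mouse left out. In KD mice compared with AL mice, Camk2b, a subunit of CaM kinase II, had a log2 fold change of -0.02 (edgeR's adjusted p = 0.994).

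Of 14 downstream partners in calcium signalling, 2 were called on DR against AL, both lower, and the median log2 fold change was -0.03. Nos1, the neuronal nitric oxide synthase that the same scaffold proteins tie to the receptor, was at 244, 310, 355 and 242 CPM on AL, at 264, 260, 256 and 258 CPM on KD and at 208, 228, 226 and 198 CPM on DR. The DR mice lay below all others, and AL replicates 2 and 3 stood above the remaining mice. Its log2 fold change was -0.42 on DR against AL (SE 0.099, edgeR's adjusted p = 0.0347), a call kept in 3 of 8 fits with 1 mouse removed and lost with DESeq2 (adjusted p = 0.0675). Between DR and KD it was -0.27 (SE 0.048, edgeR's adjusted p = 0.00371), called in all 8 but not in the fit over all 12 libraries (adjusted p = 0.0919). Sipa1l1, which encodes a postsynaptic regulator of Rap GTPases, was lower on DR than on AL (-0.21, adjusted p = 0.0243, 3 of 8 fits) and than on KD (-0.23, adjusted p = 0.00952, 8 of 8 fits).

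None of the 10 regulators of subunit expression was called in any comparison, and 1 of them had an unadjusted p under 0.05 on DR against AL. Etv1, a transcription factor of granule cell maturation, was at 733 ± 23.8 CPM on AL, 735 ± 28.3 CPM on DR and 724 ± 32.6 CPM on KD (SD, n = 4 each), with a log2 fold change of 0.0039 on DR against AL (edgeR's adjusted p = 0.978).

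**Figure D4:**
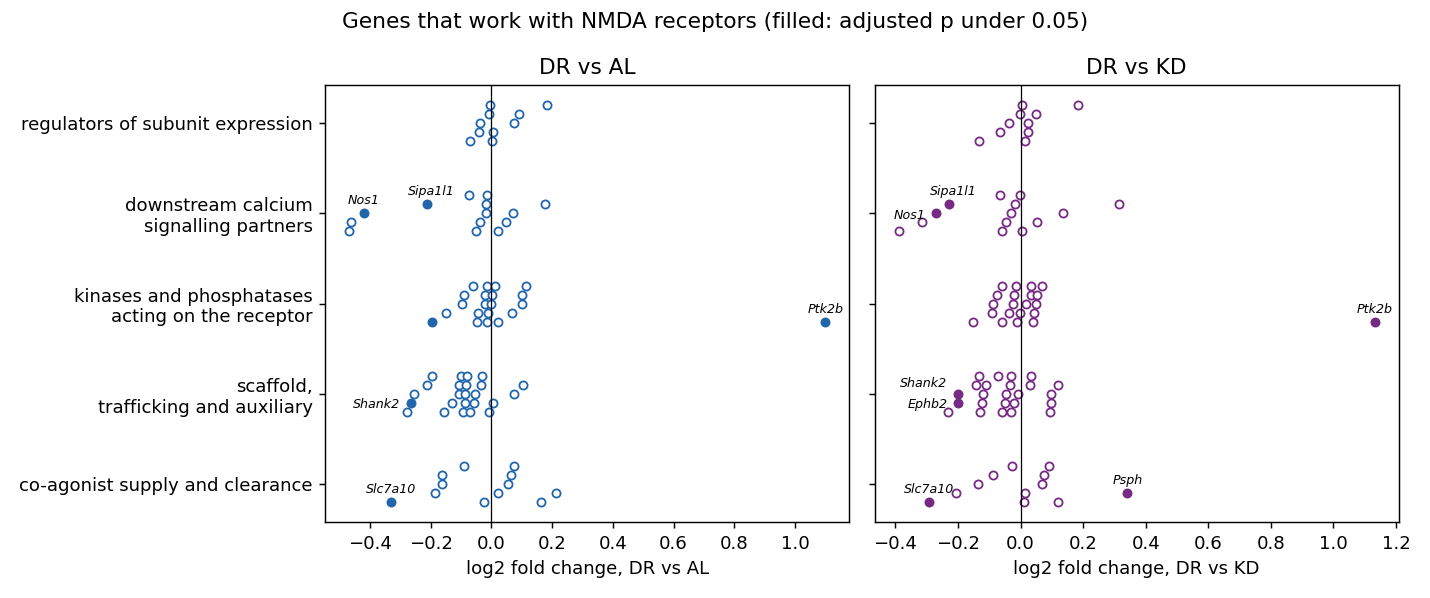
Log2 fold change (horizontal axis) of every partner gene tested, by list, on DR against AL (left) and DR against KD (right). Each point is 1 gene, and filled points, of which most are named, have an adjusted p under 0.05 in edgeR's test. Ptk2b, at 1.10 and 1.13, stands apart to the right, and most genes lie close to 0.

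Markers of cerebellar cell types were read beside these results. Of all genes tested, 3.06% were called on DR against AL in either direction, and 1.74% were called lower. On DR against KD these shares were 4.94% and 2.43%. Whether a marker list differed from these shares was not tested. Of 10 granule cell markers, 0 were called on DR against AL, 2 had an unadjusted p under 0.05, and their summed level was 6732 to 7154 CPM on AL, 6872 to 6958 on DR and 6866 to 7151 on KD. Between DR and KD, Cbln3 (0.21) and Fat2 (-0.20) of these were called. Of 10 Purkinje cell markers, 3 were called on DR against AL and 3 on DR against KD, all lower, among them Car8 in both (-0.25 and -0.24). Their sum was 5857 to 6740 CPM on DR, 6944 to 7444 on AL and 6851 to 7052 on KD. The DR mice lay below all others for the Purkinje sum, as for Grin2a and Grin2b. Most of that sum was Itpr1, named after its values were seen, with means of 4394 CPM on AL, 3769 on DR and 4279 on KD. Itpr1 was not called (edgeR's adjusted p = 0.0869 against AL and 0.0989 against KD), and its DR and KD mice overlapped. Pcp2, Ppp1r17, Pcp4 and Skor2 overlapped between all diets, so the sum does not speak for every marker of the list.

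Among 8 markers of Bergmann glia and astrocytes, Aqp4 (-0.52), Hopx (-0.47) and Gja1 (-0.24) were called lower on DR against AL, with a sum of 2435 to 2505 CPM on DR, 2698 to 2833 on AL and 2601 to 2722 on KD. When DR was set against KD, Aqp4 (-0.45) and Hopx (-0.30) were called. Of 7 markers of immature granule cells and proliferation, 4 passed the filter on DR against AL and Top2a (-2.27) was called, at only 0.100 CPM on DR and 0.488 CPM on AL. The sum of these was 588 to 665 CPM on AL, 529 to 578 on DR and 588 to 610 on KD, and Atoh1 was at 0 in all AL mice. The last sum was almost entirely Cntn2, named after its values were seen, with a mean of 605 ± 36.4 CPM in AL mice against 557 ± 21.4 CPM in DR mice (SD, n = 4 each), which was not called (edgeR's adjusted p = 0.222), and 5 of the 7 genes were under 1 CPM. None of the list was called on DR against KD. The DR mice lay below all others for the sum of Bergmann glia and astrocyte markers too. The largest part of that sum was Slc1a3, named after its values were seen, with means of 1324 CPM on AL, 1184 on DR and 1287 on KD. Slc1a3 was not called (edgeR's adjusted p = 0.0749 against AL and 0.142 against KD), though its DR mice lay below all others. Gdf10, Gfap, Aldh1l1 and Slc1a2 overlapped between all diets, so this sum does not speak for every marker of its list. Of 7 Golgi and unipolar brush cell markers, Lgi2 was called higher on DR (0.37 against AL, 0.28 against KD), and the sums overlapped at 675 to 706 CPM on AL, 639 to 732 on DR and 677 to 716 on KD.

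Of 8 oligodendrocyte markers, 1 was called on DR against AL and 2 on DR against KD, all lower, among them Mag against KD (-0.24), and their sums overlapped at 2325 to 2956 CPM on AL, 2173 to 2700.5 on DR and 2564 to 2776 on KD. Of 6 markers of oligodendrocyte precursors, Gpr17 was called lower (-0.53 against AL, -0.48 against KD), with Sox10 (-0.60) against KD, and the sums were 65.9 to 86.6 CPM on AL, 55.8 to 69.1 on DR and 76.8 to 80.2 on KD. In DR mice against KD mice, Kdr (-0.46) of 6 endothelium and pericyte markers and Ttr (-2.16) of 7 choroid plexus and meningeal markers were called. Ttr ranged from 0.371 to 7.95 CPM in the KD mice, a range that held all DR mice (0.655 to 0.817 CPM). On DR against AL, 0 were called of the markers of molecular layer interneurons, microglia, endothelium, choroid plexus, forebrain neurons, and brainstem and midbrain neurons, in which 0 to 2 markers per list had an unadjusted p under 0.05. Brainstem and midbrain markers summed to 2.05 to 4.42 CPM over all 12 mice, with Slc6a2 at 0 in all AL mice, and forebrain markers to 89.5 to 111 CPM. The part of these markers in the fall of Grin2a and Grin2b was not tested.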

How the data were processed

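Poly(A) RNA-seq libraries were made from the cerebellar cortex of 12 mice, 4 per diet, with a kit that does not mark strand. According to the methods and the submitters' processing notes, the authors trimmed reads with Trimmomatic 0.39, aligned them with STAR 2.7.0f to GRCm38.p6 and counted them per gene with featureCounts of Subread 1.6.4. The deposited values are whole-number counts per gene for 54752 genes, without normalization. Reads shared between genes or split between similar genes can move a count, and strand in the counting is not given in the sources used here.

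Diets came from the sample labels, and replicates were numbered within a diet in the order of the samples, so numbers pair no mice. All 18 pairs of libraries of 1 diet differed by more than sampling noise (chi-square per gene 4.95 to 11.55). Symbols were matched for 54723 genes from GENCODE vM21, 53861 of them by exact identifier, and lengths are the exonic lengths of the deposited table. RPKM is CPM divided by that length in kilobases.

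Low counts were removed by filterByExpr (a minimum count of 10 and a minimum total of 15) before TMM scaling. Each pair of diets was then fitted on its own 8 libraries in R 4.3.3 (edgeR 4.0.16, quasi-likelihood test), and p-values were adjusted by Benjamini-Hochberg, with calls made under 0.05. Log2 CPM for likeness used a prior count of 2. The 9 ratio comparisons used two-sided exact permutation tests over 70 divisions (smallest p 0.0286). The procedure was tested on simulated counts, and alternatives are given in the closing section. The 6 members, the 5 partner lists, the 13 marker lists and the tests were chosen with earlier results of these data known. The text names all members, Grin3b and Grina, up to 4 called genes of the lowest adjusted p per partner list and comparison (or, with none called, the most abundant gene), the 3 nearest genes of each member, and called markers. The Dlg genes and some markers that were not called, among them Itpr1 and Cntn2, were mentioned outside this rule. Some genes that the rule selects are not reported here. Coding lengths and coding ends were taken from GENCODE vM21.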

Additional observations from a re-analysis of the deposited data

Results flagged for a closer look

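A mouse far from the other 3 of its diet was sought with Dixon's test in 27 groups of 4 values, where chance gives about 1 in 20, and 2 groups exceeded its critical value. Grin2c was at 534 CPM in KD replicate 2, above the other KD mice at 491 to 498 CPM, with a gap of 0.841 of the range. Grin3a was at 25.0 CPM in KD replicate 3, below the other KD mice at 27.1 to 27.5 CPM, with a gap of 0.840 of the range. Neither gene was called in a comparison with KD, with or without these mice.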

How the results depend on the processing

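In the 15 alternative fits of each comparison, Grin2b on DR against AL kept its direction and its call (log2 fold change -0.41 to -0.33), and Grin2a kept its direction on DR against AL (-0.20 to -0.14) and against KD (-0.20 to -0.14), as did Grin2b against KD (-0.27 to -0.19). The number of members called on DR against AL was 1 with the length trend removed and 1 to 2 with a mouse left out. On DR against KD it was 0 with library size alone, 1 with a mean above 10 CPM, 1 with the length trend removed and 0 to 2 with a mouse left out. On KD against AL it was 0 throughout. Without a filter, the genes called were 1258 (DR against AL), 118 (KD against AL) and 1503 (DR against KD), and the partner genes called 10 and 11 for the comparisons with DR. DESeq2 called 958 genes on DR against AL and 10 on KD against AL. With a mouse left out, the genes called ranged from 235 (without DR replicate 3) to 712 (without AL replicate 3) on DR against AL, from 0 to 6 on KD against AL and from 467 (without KD replicate 3) to 946 on DR against KD, and the partner genes called from 2 to 6 on DR against AL and from 3 to 9 on DR against KD. The log2 ratios with a mouse left out ranged, for Grin2a to Grin2b, from 0.17 to 0.23 on DR against AL and from 0.11 to 0.20 on KD against AL. For Grin2c to Grin2a they ranged from 0.22 to 0.32 on DR against AL and from 0.14 to 0.24 on DR against KD, and for Grin2c to Grin2b from 0.19 to 0.29 on DR against KD. With the length trend removed, Grin2c to Grin2a on DR against AL was 0.21 (exact p = 0.0571). Coding length, chosen after seeing the data since no protein table was at hand for the alternative first listed, gave AL shares of 76.2% (Grin2c), 16.7% (Grin2a), 4.02% (Grin2b) and 3.07% (Grin2d). The cause of these changes was not tested, other than that fits with a mouse left out hold fewer samples and unfiltered fits more genes. No paired analysis was possible because the labels number no replicates. With 4 mice per diet and 599 to 1247 reads per library for Grin2b and Grin2d, spread between mice and not only counting limits these values.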
